A study of Mus musculus with 6 samples.

Results

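The RBM genes are a loosely named family of genes whose symbol stands for RNA-binding motif. They were chosen here by symbol (RBM followed by a number, with or without a final A, B, X or L) and by a minimum of 60 expected counts summed over the 6 libraries, where an expected count is the number of reads that RSEM assigned to a feature. 35 genes with 353 annotated isoforms met both conditions, of 58870 genes and 208621 isoforms in all. RBM46, with 1 count in all, and RBM8B, with 48.3, lay below the minimum, and RBM44, with 134 counts, was the lowest member, followed by RBM24 with 1501. A further gene that the symbol pattern matches is not reported here. The rule used no difference between groups, but the members were chosen with earlier results of these data known.

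RNA was measured by sequencing of stranded mRNA libraries from 77-5 cells, 1 clone of the human embryonic kidney line T-REx-293 holding a BAC minigene of mouse Ntrk2 (TrkB) and a doxycycline-inducible Rbfox1. Both groups carried the minigene and the inducible Rbfox1. The No Dox group (3 libraries) received no drug, and the Dox group (3 libraries) received doxycycline for 48 h at a concentration that the labels give as 0.5 mg/ml and the legends of the study in micrograms per ml. No library had doxycycline without inducible Rbfox1, so an effect of the drug itself cannot be told apart from that of Rbfox1. The labels do not say whether the libraries came from separate cultures, and p-values then measure the spread between these libraries, which may be technical.

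Most RBM proteins carry one or more RNA recognition motifs, the commonest RNA-binding fold of animal cells, and they act at many steps of the life of an mRNA. Some bind near splice sites and decide whether an exon is kept, some are built into the spliceosome, and others mark spliced or methylated RNA, hand nuclear RNA to the exosome or help to make ribosomes. Many pre-mRNAs of splicing factors are themselves alternatively spliced, and Rbfox1 is a splicing regulator that binds (U)GCAUG motifs in introns. The comparison of Dox with No Dox therefore addressed both how much of each RBM mRNA was present and which isoforms it was made of.

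The libraries held between 59822964 and 65774104 expected counts, and the RBM genes took 0.318 to 0.33% of them in each library. RBFOX1 was at 6.92, 8.42 and 7.26 TPM (transcript level per length, scaled to a fixed total in each library) in No Dox and at 190, 189 and 186 TPM in Dox. The log2 fold change was 4.55 ± 0.06 (SE, edgeR adjusted p 7.6e-18), and TPM gave an exact two-sided permutation p of 0.1, the smallest that 3 libraries against 3 can give. KRT8, KRT18 and VIM, which HEK293 lines express, had group means between 121 and 692 TPM, all lower in Dox (KRT18 155 against 121 TPM), while the neural markers NES (2.56 against 2.90 TPM) and NEFM (0.55 against 1.15 TPM, log2 fold change 1.04, edgeR adjusted p 3.1e-05) were higher in Dox, each without overlap. NES fell just short of the threshold (edgeR adjusted p 0.051). Markers of leukocytes, hepatocytes, endothelium and muscle (PTPRC, ALB, PECAM1, MYH7, ACTA1, MYOD1, TTN, DES) had group means of at most 0.537 TPM. ALB (0.0667 against 0.30 TPM) and ACTA1 (0.43 against 0.537 TPM) were higher in Dox without overlap. ALB had 1, 2 and 3 counts in No Dox and 7, 9 and 7 in Dox, too few to be tested. ACTA1 did not pass (log2 fold change 0.27 ± 0.25, SE, edgeR adjusted p 0.38). The part of these marker differences in the results on RBM genes was not tested. In a bulk sample a lower level in each cell and fewer cells of one kind cannot be told apart.

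The 35 RBM genes moved little. Of these, 8 were higher and 11 lower in Dox and 16 did not pass the test (edgeR quasi-likelihood test on rounded gene sums, Benjamini-Hochberg adjusted p under 0.05 over 18264 genes), and none of the changes that passed reached 1.5-fold. Over all genes tested 51.4% passed, 24.9% higher and 26.5% lower, so that 19 of 35 is close to the share among all genes. The same shares stand beside the counts of role groups and partner lists below. The median log2 fold change was -0.014 over the RBM genes and 0.005 over all genes, and the median absolute log2 fold change was 0.124 against 0.181. 2 RBM genes passed the test with an absolute log2 fold change of at least 0.3, where 21.7% of all genes did. All genes were not matched to the RBM genes on level, and 28 of the 35 were at 10 TPM or more in No Dox. The part of level in the smaller changes was not tested. TPM values of the groups did not overlap for 18 RBM genes, beside 50.2% of all genes. Scaling by library size alone moved the median of all genes to 0.052 and gave 12 RBM genes higher and 10 lower. The share of all genes called under that scaling is not given here.

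**Figure D1:**
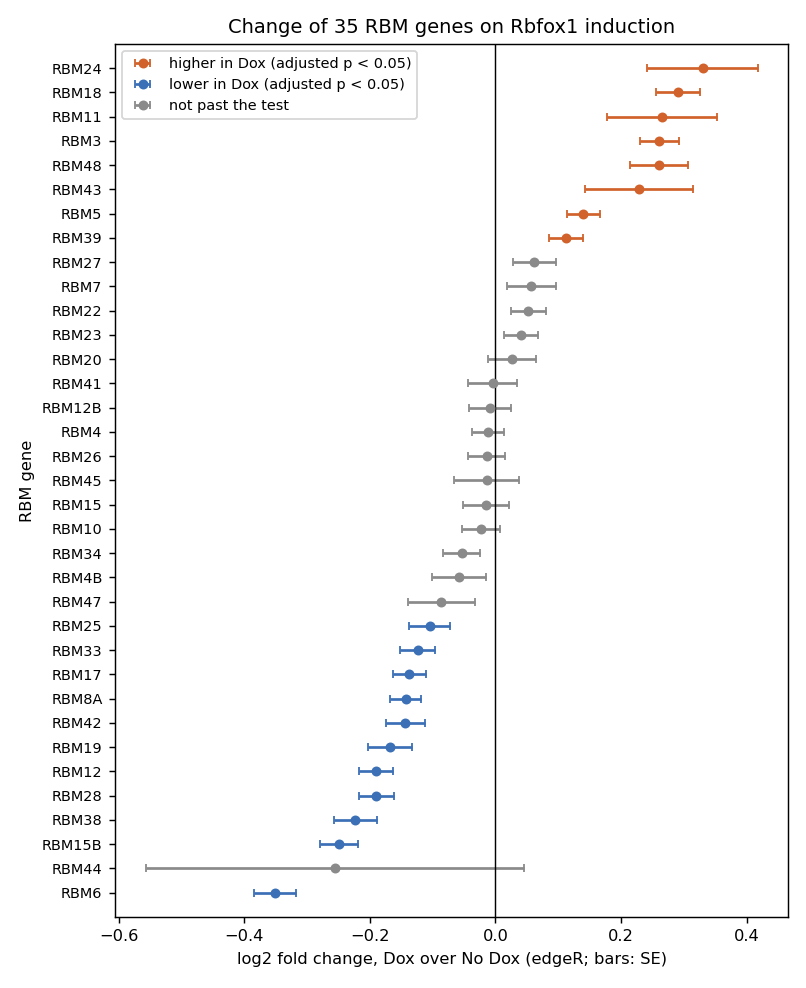
Each row is 1 of the 35 RBM genes, ordered by its log2 fold change of Dox over No Dox on the horizontal axis (edgeR, 3 libraries a group), with the bar showing the standard error and the colour showing whether the gene passed the test. The points run from -0.35 for RBM6 to 0.33 for RBM24, with 8 genes higher and 11 lower, and RBM44, the gene with the fewest reads, has the longest bar.

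The members spanned a wide range of levels. RBM3 was the highest at 365 ± 22.4 TPM (SD, n = 3) in No Dox and RBM44 the lowest at 0.167 ± 0.0451 TPM, and 28 of the 35 genes were at 10 TPM or more. RBM44, known from germ cells, was at 0.17, 0.21 and 0.12 TPM in No Dox and at 0.11, 0.21 and 0.12 TPM in Dox, from 17 to 33 counts a library. Its log2 fold change of -0.26 ± 0.30 (SE) fell short of the threshold (edgeR adjusted p 0.51), and a change of that size was not detectable at this depth.

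The first group holds regulators of splice site choice and exon definition. RBM5, RBM6 and RBM10 are related regulators of cassette exons, and RBM17 (SPF45) binds 3' splice site factors. RBM39 and RBM23 resemble U2AF2, and RBM25 is a regulator of BCL2L1 splicing. Of these 7 genes 2 were higher, 3 lower and 2 did not pass. RBM6 (ENSG00000004534.15) gave 42.3, 42.4 and 42.2 TPM in No Dox and 33.9, 34.6 and 36.7 TPM in Dox. All Dox libraries lay below all No Dox libraries, and the log2 fold change was -0.35 ± 0.03 (SE, edgeR adjusted p 2.2e-07), the largest absolute change among the members that passed, and it passed in all 13 alternative analyses. Its relative RBM5 moved the other way, from 73.7, 73.5 and 72.6 TPM to 91.2, 82.6 and 86.7 TPM (0.14 ± 0.03 on the log2 scale of counts, edgeR adjusted p 3e-04). The third of these relatives, RBM10, stood at 62.9 ± 1.47 and 64.4 ± 2.69 TPM without passing (-0.02 ± 0.03). RBM39 rose by 0.11 ± 0.03 and RBM17 fell by 0.137 ± 0.03 on the log2 scale (edgeR adjusted p 0.0023 and 4.4e-04). RBM25 fell by 0.105 ± 0.03, with overlapping TPM values. Without Dox replicate 2 the adjusted p of RBM25 was 0.06 (log2 fold change -0.09) and without No Dox replicate 2 it was 0.078 (-0.08).

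Among 9 genes listed as partners at the 3' splice site, 8 were tested and 1 (SUGP1) was not analysed here. 2 rose, 3 fell and 3 did not pass, where 24.9% of all genes rose and 26.5% fell. The median log2 fold change was -0.05, beside 0.005 over all genes. U2AF2, the large subunit of the factor that reads the polypyrimidine tract, was at 299, 303 and 302 TPM in No Dox and at 248, 242 and 228 TPM in Dox. All Dox values lay below all No Dox values (-0.38 ± 0.03, edgeR adjusted p 4.8e-09). CHERP, which associates with RBM17, fell by 0.253 ± 0.04, and PUF60, a relative of U2AF2, fell by 0.153. U2AF1, the small subunit, had a log2 fold change of 0.30 ± 0.08, but its TPM overlapped between the groups (No Dox from 31.4 to 47.0, Dox from 45.4 to 53.8), and the GRCh38 build holds a near-identical copy of this gene that can take its reads.

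Of the 4 spliceosome components, RBM48 was higher, RBM42 was lower and RBM22 and RBM41 did not pass. RBM48, a protein of the minor (U12-type) spliceosome, was at 5.47, 5.51 and 6.10 TPM in No Dox and at 6.95, 7.66 and 7.87 TPM in Dox (0.26 ± 0.05, edgeR adjusted p 1.6e-04), without overlap. RBM42, a protein of the tri-snRNP (ENSG00000126254.12), was at 228, 227 and 231 TPM in No Dox and at 228, 221 and 208 TPM in Dox, so that the highest Dox library lay within the range of the No Dox libraries (-0.14 ± 0.03, edgeR adjusted p 9.8e-04). RBM41, which binds snRNA of the minor spliceosome, was at 23.4 ± 0.854 and 23.5 ± 1.70 TPM, and its log2 fold change was -0.004 ± 0.04. Of the 11 other minor spliceosome genes 2 rose, 5 fell and 4 did not pass, where 24.9% of all genes rose and 26.5% fell. SNRNP35 fell by 0.283 and PDCD7 by 0.199, while CCDC84 (CENATAC) rose by 0.19 and SNRNP48 by 0.12, all on the log2 scale. ARMC7, a partner of RBM48, fell by 0.113, opposite in direction to RBM48.

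RBM8A (Y14), the core protein that pairs with MAGOH in the exon junction complex laid down at spliced junctions, was at 255, 256 and 254 TPM in No Dox and at 241, 243 and 249 TPM in Dox. The ranges did not overlap, and the log2 fold change was -0.14 ± 0.03 (edgeR adjusted p 1.4e-04). MAGOH fell from 197 ± 6.67 to 163 ± 4.76 TPM (-0.31 ± 0.04, edgeR adjusted p 1.9e-06), and EIF4A3, the helicase that clamps the complex onto RNA, fell by 0.195 ± 0.03. MAGOHB, the paralogue of MAGOH, had a log2 fold change of 0.10 ± 0.04 (edgeR adjusted p 0.045). In all, of 9 listed exon junction complex genes 6 fell, 2 rose and 1 did not pass, with a median log2 fold change of -0.097. Over all genes tested 26.5% fell and 24.9% rose, with a median of 0.005. Whether the complex moved as a set was not tested.

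RBM15 and RBM15B are paralogues that bring the m6A methyltransferase complex to its target RNA. RBM15B was at 25.5, 25.4 and 25.6 TPM in No Dox and at 22.7, 22.2 and 21.0 TPM in Dox, with no overlap (-0.25 ± 0.03, edgeR adjusted p 4.1e-06). RBM15 had 15.0 ± 0.251 and 15.2 ± 0.491 TPM and missed the threshold (-0.02 ± 0.04). Within the writer complex, the catalytic pair METTL3 and METTL14 fell by 0.165 and fell by 0.148, ZC3H13 rose by 0.11 and WTAP, VIRMA and CBLL1 did not pass.

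RBM7, RBM26 and RBM27 act in the NEXT and PAXT complexes, which pass nuclear transcripts to the RNA exosome. None of the 3 passed at the level of the gene, with log2 fold changes from -0.01 to 0.06. RBM27 passed when No Dox replicate 3 was left out (log2 fold change 0.098, edgeR adjusted p 0.03). Of 6 partners, ZFC3H1, SRRT and PABPN1 fell by 0.155, 0.127 and 0.063 and ZCCHC8, MTREX and ZC3H3 did not pass. Among all genes 26.5% passed as lower.

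RBM3, a cold-inducible RNA-binding protein (ENSG00000102317.18), was at 341, 369 and 385 TPM in No Dox and at 438, 467 and 488 TPM in Dox. Every Dox library lay above every No Dox library, with means of 365 ± 22.4 and 464 ± 24.8 TPM and a log2 fold change of 0.26 ± 0.03 (edgeR adjusted p 2.8e-06). CIRBP, the other well known cold-inducible RNA-binding protein and outside the symbol rule, rose as well, from 217 ± 6.89 to 284 ± 2.57 TPM (0.34 ± 0.03, edgeR adjusted p 2.8e-08). RNA recognition motif genes with related symbols that were listed with CIRBP (RBMX, RBMX2, RBMXL1, RBMS1, RBMS2 and RBMS3) add up with it to 7 genes, of which 4 passed as higher, RBMX passed as lower (-0.06) and RBMX2 and RBMS1 did not pass. Among all genes 24.9% passed as higher. RBMS3 passed by counts (0.34) although its TPM was lower in Dox (4.82 against 3.54).

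RBM19, RBM28 and RBM34 are nucleolar proteins of ribosome biogenesis. RBM28 was at 88.8, 85.1 and 94.1 TPM in No Dox and at 80.9, 82.2 and 84.9 TPM in Dox (-0.19 ± 0.03, edgeR adjusted p 2.9e-05). RBM19 fell from 26.3 ± 1.09 to 24.4 ± 1.03 TPM (-0.17 ± 0.04, edgeR adjusted p 8.2e-04), also with no overlap between groups. RBM34 stood at 84.7 ± 8.27 and 83.7 ± 1.55 TPM without passing.

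Of the 7 members known mainly from particular tissues (RBM11, RBM20, RBM24, RBM38, RBM44, RBM45 and RBM47), 2 were higher, 1 was lower and 4 did not pass. RBM24, a muscle splicing regulator, was at 1.85, 2.28 and 2.25 TPM in No Dox and at 2.59, 2.77 and 2.48 TPM in Dox. Its counts were 211, 227 and 217 against 287, 276 and 283, and the log2 fold change of 0.33 ± 0.09 (edgeR adjusted p 0.0051) was the highest of the members. RBM38, its paralogue and a target of p53, was at 43.3, 44.2 and 43.4 TPM in No Dox and at 40.3, 38.5 and 36.9 TPM in Dox (-0.22 ± 0.03, edgeR adjusted p 3.8e-05). The paralogues thus passed in opposite directions, each without overlap of TPM, and RBM38 was the more abundant by TPM in both groups. RBM11 passed as higher (0.27 ± 0.09) with overlapping TPM values of 5.81 to 7.37 and 6.68 to 8.01. Without Dox replicate 3 its edgeR adjusted p was 0.058 (log2 fold change 0.23), and without No Dox replicate 1 it was 0.11 (0.18). RBM47, an epithelial cofactor of mRNA editing, had 7.95 ± 0.422 and 7.25 ± 0.653 TPM and missed the threshold, but passed without Dox replicate 1 (log2 fold change -0.14, edgeR adjusted p 0.03). RBM20, a regulator of titin splicing in the heart, did not pass either (0.03 ± 0.04).

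The remaining members have varied or less settled roles. RBM18 was at 13.0, 12.1 and 11.7 TPM in No Dox and at 13.3, 15.1 and 15.0 TPM in Dox (0.29 ± 0.04, edgeR adjusted p 4.2e-06). RBM12 was at 83.1, 88.7 and 85.5 TPM in No Dox and at 78.9, 79.7 and 81.1 TPM in Dox (-0.19 ± 0.03, edgeR adjusted p 2.2e-05). CPNE1, which shares its 5' region with RBM12 so that reads may be exchanged, was also lower (177 ± 3.25 against 157 ± 3.36 TPM, -0.25). RBM33 fell by 0.124 with overlapping TPM. RBM43 passed narrowly as higher (0.23 ± 0.09, edgeR adjusted p 0.036), and lost the call without Dox replicate 2 (0.19), No Dox replicate 1 (0.20) or No Dox replicate 2 (0.21). Neither RBM4 nor RBM4B, splicing and translation regulators that are close copies of each other, passed at the level of the gene (-0.01 ± 0.03 and -0.06 ± 0.04).

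**Figure D2:**
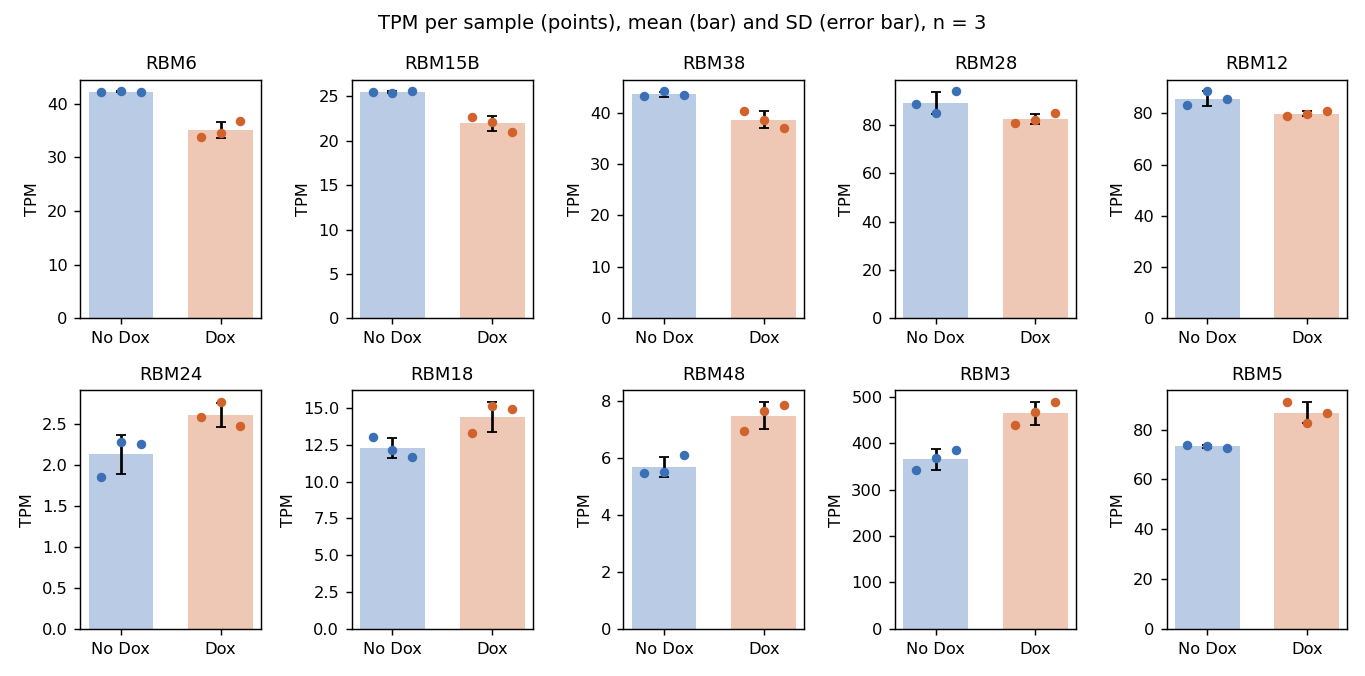
Points give the TPM (transcript level per length, vertical axis, each panel with its own scale from 0) of 10 RBM genes in the 3 No Dox and 3 Dox libraries, with bars at the group mean and error bars of 1 SD. RBM6, RBM15B, RBM38, RBM28 and RBM12 in the upper row are lower in Dox. RBM24, RBM18, RBM48, RBM3 and RBM5 in the lower row are higher. The groups do not overlap in any of these 10 panels, whose genes were chosen by a threshold or after their values were seen. RBM25, RBM33, RBM42, RBM43 and RBM11 also passed the test, but their TPM values overlap and they are not shown. Among the 35 RBM genes tested 18 did not overlap, beside 50.2% of all genes.

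Counts and TPM did not always move alike. TPM divides by the lengths of the isoforms that RSEM assigns, and counts do not. 4 genes did not pass by counts although their TPM did not overlap: RBM20, RBM22 and RBM23 had higher TPM in Dox and RBM12B lower. RBM12B was at 24.2, 23.4 and 24.8 TPM in No Dox and at 22.1, 22.1 and 22.7 TPM in Dox with a log2 fold change of counts of -0.009 ± 0.03, and the mean length of its isoforms, weighted by abundance, was 3782 ± 134 bases in No Dox and 4145 ± 102 bases in Dox. For RBM20 the weighted length was 7217 ± 87 against 6862 ± 77 bases and for RBM23 1961 ± 30 against 1855 ± 25 bases. For RBM22, whose TPM was 70.4 ± 0.609 against 74.3 ± 2.27, it was 2071 ± 16 against 2086 ± 15 bases, no shorter in Dox. A limma test of log2 TPM called 12 of the RBM genes, of which 10 had passed by counts. RBM23 (0.17) and RBM12B (-0.11) passed on this scale and not by counts, and RBM24 (0.29), RBM28 (-0.11), RBM19 (-0.11), RBM42 (-0.06), RBM17 (-0.06), RBM25 (-0.04), RBM33 (-0.11), RBM43 (0.20) and RBM11 (0.13) lost the call, with log2 TPM differences of the same sign as by counts. RBM43 and RBM11 also lost it with DESeq2.

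Isoforms were examined in 2 ways. A limma-voom test of each isoform, for which 229 of the 353 RBM isoforms had enough reads, called 26 isoforms (13 higher and 13 lower) in 16 genes, beside 12.6% of all 72438 isoforms tested. In 4 genes isoforms passed in both directions. A test of isoform usage, which asks whether an isoform changed differently from the rest of its gene (limma diffSplice with the Simes method), called 11 of the 30 RBM genes with enough isoforms to test, beside 27.5% of 12328 genes. The 11 were RBM26, RBM23, RBM4, RBM42, RBM4B, RBM48, RBM3, RBM12, RBM25, RBM41 and RBM45. Of these, 5 had also passed at the level of the gene and 6 had not. Among the 19 genes tested for usage and not called, 12 had passed at the level of the gene and 7 had not. The 5 genes that could not be tested for usage were RBM15B and RBM43, which had passed at the level of the gene, and RBM20, RBM27 and RBM44, which had not. Leaving out 1 library also added usage calls: RBM39 (adjusted p 0.72 with all libraries) reached 4.7e-06 without Dox replicate 3, RBM10 (0.11) reached 0.0091 without Dox replicate 1, RBM33 (0.29) reached 0.013 without No Dox replicate 2, and RBM12B (0.051) reached 0.04 without Dox replicate 2 and 0.035 without No Dox replicate 2. The isoform percentage, the share of an isoform in the TPM of its gene as RSEM estimates it, shifted by at least 10 points in 5 genes (RBM26, RBM42, RBM48, RBM4B and RBM11), while the median over members of the largest shift was 4.57 points. Among usage-tested genes at 5 TPM or more in both groups, 1295 of 9849 (13.1%) and 5 of 29 RBM genes had a shift of 10 points.

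RBM26 (ENSG00000139746.15), the zinc finger and RNA recognition motif protein of the PAXT pathway, had the lowest usage p of the family while its total level did not pass. The gene stood at 39.7, 41.9 and 41.2 TPM in No Dox and at 41.5, 41.6 and 42.7 TPM in Dox (-0.01 ± 0.03, edgeR adjusted p 0.71), and the usage test gave an adjusted p of 4.6e-13. It was called in all 11 alternative usage analyses.

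The isoform RBM26-203, of 4132 bases, made up 1.68, 2.86 and 3.42% of the gene in No Dox and 21.99, 22.07 and 22.51% in Dox. It went from a minor to a major isoform in every Dox library, from 1.09 ± 0.381 to 9.30 ± 0.27 TPM, with a log2 fold change of 3.15 ± 0.21 (limma-voom adjusted p 3.5e-04). RBM26-207, of 5230 bases, went in the same direction, from 4.17, 3.35 and 2.83% to 7.50, 8.09 and 10.88% (1.38 ± 0.22, limma-voom adjusted p 0.0097). In the other direction, RBM26-201, of 3624 bases, fell from 35.86, 31.98 and 31.56% to 20.37, 20.69 and 19.07% (-0.70 ± 0.06, limma-voom adjusted p 8.2e-04). RBM26-202, of 5152 bases, fell from 25.54, 27.68 and 26.62% to 14.83, 12.87 and 10.46% (-1.06 ± 0.11, limma-voom adjusted p 0.0019). None of these 4 isoforms had overlapping values. RBM26-204, of 3662 bases, held 32.4 ± 1.09% in No Dox and 34.3 ± 0.934% in Dox and did not pass (limma-voom adjusted p 0.3). RBM26-201, RBM26-202 and RBM26-204 had the highest mean shares in No Dox, and RBM26-204, RBM26-203 and RBM26-201 had them in Dox. The antisense gene RBM26-AS1 stood at 3.49 ± 0.141 and 3.54 ± 0.388 TPM without passing.

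**Figure D3:**
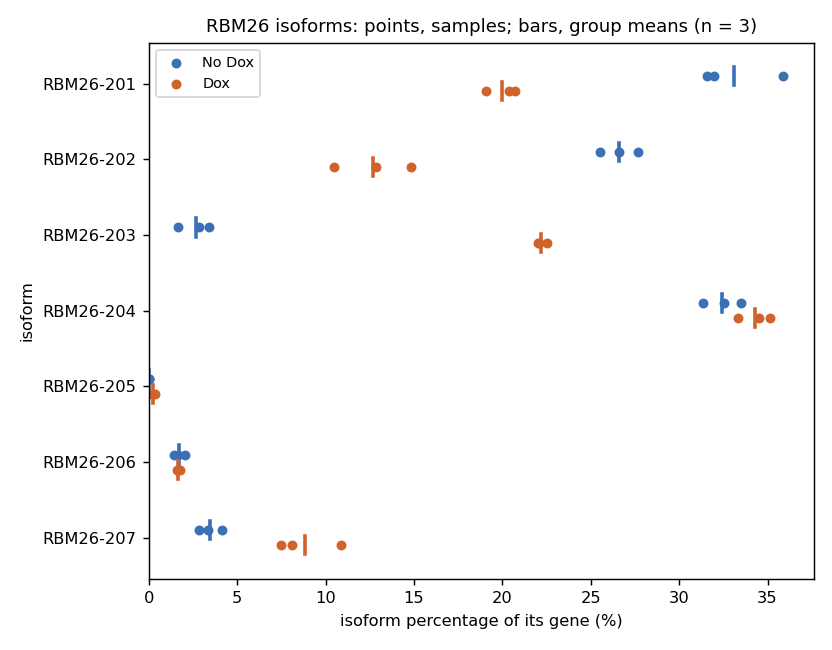
Points give the percentage of RBM26 taken by each of its 7 annotated isoforms (horizontal axis, %) in each No Dox and Dox library, and vertical bars give the group means. RBM26-201 and RBM26-202 move down by 13.1 and 13.9 points in Dox and RBM26-203 moves up by 19.5 points, with no overlap between the groups, while RBM26-204 has means of 32.4 and 34.3%.

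RBM42 showed a shift away from its main isoform. RBM42-201, of 1692 bases, took 72.08, 71.87 and 75.28% in No Dox and 59.82, 61.88 and 60.72% in Dox, a difference of -12.3 points without overlap (log2 fold change -0.34 ± 0.04, limma-voom adjusted p 0.0025). RBM42-204, of 1328 bases, went from 13.4 ± 0.251 to 16.6 ± 0.279% (limma-voom adjusted p 0.033, lost in 5 of the 6 analyses that leave out 1 library, with log2 fold changes from 0.20 to 0.25 in those 5). RBM42-206, of 1469 bases, was listed at 0, 1.25 and 1.46% in No Dox and at 5.48, 5.51 and 7.56% in Dox. It did not pass limma-voom (adjusted p 0.1) and passed when No Dox replicate 1, the library listed at 0, was left out (log2 fold change 2.10, adjusted p 0.0059). The usage call of the gene (adjusted p 1e-04) held in all 11 alternatives.

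RBM4 and RBM4B both shifted while their totals did not pass. RBM4-204, of 1763 bases, was at 16.88, 19.31 and 18.24% in No Dox and at 24.85, 23.47 and 25.60% in Dox (0.40 ± 0.06, limma-voom adjusted p 0.0099), and the shorter RBM4-201, of 1694 bases, was at 37.6 ± 1.15 and 31.3 ± 4.28% and did not pass (limma-voom adjusted p 0.051), but did without Dox replicate 2 (log2 fold change -0.40, adjusted p 0.032). RBM4B-206, of 1646 bases, was at 15.71, 16.28 and 21.50% in No Dox and at 28.80, 25.36 and 31.34% in Dox (0.66 ± 0.16, limma-voom adjusted p 0.042). This call was lost in 5 of the 6 analyses that leave out 1 library, with log2 fold changes from 0.57 to 0.75. RBM4B-201 went from 58.6 ± 2.24 to 49.0 ± 3.55% without passing (limma-voom adjusted p 0.055). The usage calls of RBM4 (adjusted p 1e-05) and RBM4B (1.6e-04) held in 9 and 10 of 11 alternatives. The genes are similar in sequence, so that part of their reads may be shared between them.

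Both minor spliceosome members were called for usage. In RBM48 the isoform RBM48-202, of 4093 bases, took 51.77, 50.45 and 49.35% in No Dox and 57.80, 56.16 and 59.13% in Dox (0.58 ± 0.09, limma-voom adjusted p 0.0086), and RBM48-201, of 4667 bases, took 44.7 ± 0.91 and 32.0 ± 5.13%. In TPM, RBM48-202 went from 2.87 ± 0.121 to 4.32 ± 0.316 while RBM48-201 was at 2.55 ± 0.118 and 2.38 ± 0.231 and did not pass (limma-voom adjusted p 0.52). Of these isoforms, RBM48-202 was the one that moved with the higher total of the gene. RBM41-201, of 1662 bases, was at 35.35, 34.87 and 29.86% in No Dox and at 27.05, 22.95 and 24.51% in Dox (-0.43 ± 0.10, limma-voom adjusted p 0.04), without overlap, but lost the call in each of the 6 analyses that leave out 1 library, where the log2 fold change ran from -0.48 to -0.36. The usage call of RBM41 (adjusted p 0.026) was lost without Dox replicate 2 (0.22), Dox replicate 3 (0.062), No Dox replicate 1 (0.087) or No Dox replicate 2 (0.06).

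RBM23, whose total did not pass, was called for usage with an adjusted p of 8.4e-10. RBM23-202, of 2361 bases, was at 3.71, 4.37 and 2.35% in No Dox and at 6.43, 8.73 and 9.59% in Dox (1.43 ± 0.24, limma-voom adjusted p 0.012), and RBM23-203, of 10007 bases, went from 0.84 ± 0.0755 to 0.253 ± 0.0153% (-1.56 ± 0.13, limma-voom adjusted p 7.2e-04). Its main isoform RBM23-204 was at 59.6 ± 0.56 and 53.9 ± 1.08% and did not pass the test of the isoform (0.01 ± 0.04). When only isoforms of at least 10% were tested, RBM23 was not called.

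In RBM3 the isoform RBM3-208, of 724 bases, was at 6.89, 8.76 and 9.43% in No Dox and at 12.31, 12.43 and 12.08% in Dox (0.90 ± 0.14, limma-voom adjusted p 0.0094), a larger rise than that of the gene. RBM12-203, of 6646 bases, fell from 25.7 ± 0.837 to 21.1 ± 1.12% (-0.40 ± 0.05, limma-voom adjusted p 0.0035), and the usage call of RBM12 (adjusted p 0.011) was lost without Dox replicate 1 (0.078) or Dox replicate 2 (0.092). RBM18-201, of 4977 bases, rose with its gene (7.12 ± 0.0751 to 9.10 ± 0.263 TPM, limma-voom adjusted p 0.0043) and was at 54.79, 59.31 and 60.38% in No Dox and at 70.78, 59.17 and 59.88% in Dox, so that its share overlapped. The mean difference of 5.12 points was 1.37 points without Dox replicate 1. RBM11-201 went from 34.2 ± 2.9 to 46.4 ± 6.31% without passing (limma-voom adjusted p 0.13), and passed without Dox replicate 2 (log2 fold change 0.74, adjusted p 0.044). The usage calls of RBM25 (adjusted p 0.012) and RBM45 (0.032) were each lost in 4 of the 6 analyses that leave out 1 library, with adjusted p values from 0.053 to 0.14 and from 0.083 to 0.34. RBM6, the member with the largest fall in level, was not called for usage (adjusted p 0.05), and its isoform RBM6-213 fell from 12.4 ± 0.869 to 9.41 ± 0.266% (-0.68 ± 0.08, limma-voom adjusted p 0.0036).

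**Figure D4:**
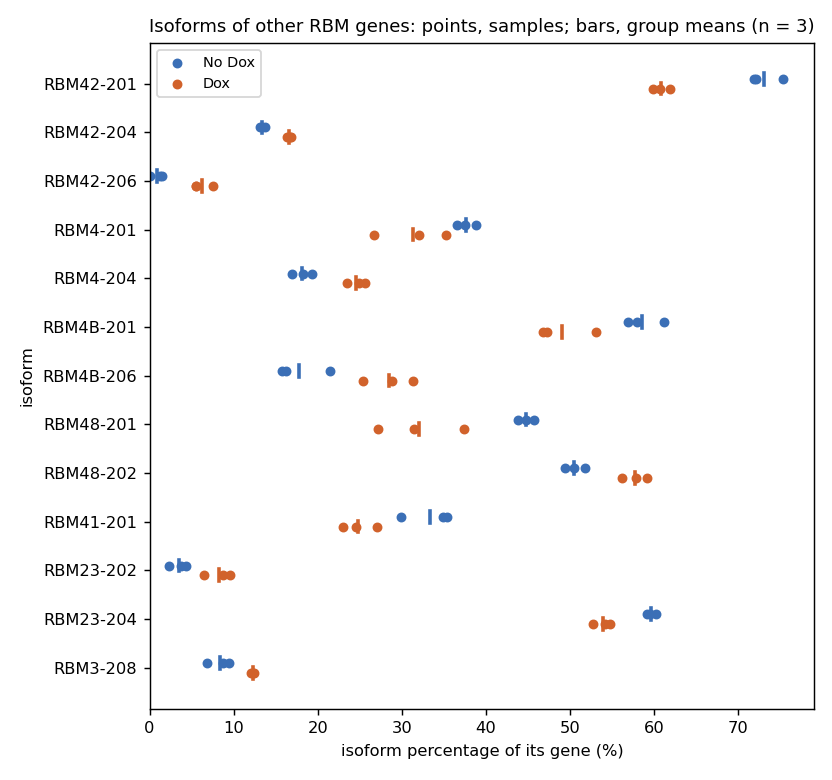
Points give the percentage of its gene taken by each of 13 isoforms of RBM42, RBM4, RBM4B, RBM48, RBM41, RBM23 and RBM3 (horizontal axis, %) in each library, and vertical bars give the group means of the 3 No Dox and 3 Dox libraries. RBM42-201 falls from 73.1 to 60.8% and RBM48-201 from 44.7 to 32.0%. The groups do not overlap in any of these 13 isoforms, which were chosen by a threshold or after their values were seen. The share of all isoforms without overlap is not given here. RBM42-206, RBM4-201, RBM4B-201, RBM48-201 and RBM23-204 did not pass the limma-voom test. Other isoforms of the same genes, such as RBM42-205 and RBM41-202, do overlap.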

How the data were processed

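The authors deposited 1 table of isoforms per library, made with cutadapt, STAR and RSEM on the human build GRCh38 according to the submitters' processing notes, with versions not given in the sources used here. Each table holds the expected count of RSEM, TPM and the isoform percentage (percent of the gene's TPM), all as deposited by the authors, who did not scale the counts between libraries. The labels name Mus musculus as the organism, but the tables list human genes. No human annotation or sequence was used here, so positions are not given. Strand use in counting is not stated.

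Isoform expected counts were summed to genes and rounded, filtered with filterByExpr, scaled by TMM and tested with the quasi-likelihood test of edgeR 4.0.16 in R 4.3.3 on all genes and all 6 libraries, without covariates. Isoforms were tested with limma-voom and diffSplice (limma 3.58.1), and p-values were adjusted by Benjamini-Hochberg over everything tested, at 0.05. diffSplice does not hold its error rate where isoforms of a gene differ in dispersion, so usage results are given as calls beside their alternatives. The standard error of a gene is its log2 fold change divided by the root of the F statistic. The fitting steps were also run on simulated counts with known changes, and the outcome is not given here. Those counts were drawn without RSEM read assignment, so they cannot test assignment error. The common biological coefficient of variation was 2.87%, and no pair of libraries was close enough in counts to be a duplicate. Dox replicate 3 differed most within its group. Its chi-square per gene, set against sampling noise, was 6.27 with Dox replicate 1 and 4.31 with Dox replicate 2. The other pairs within a group gave 2.3 to 2.99.

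By rule, values in every library were given for members that passed edgeR with an absolute log2 fold change of at least 0.3, for the lowest and highest member by TPM, and for isoforms that passed limma-voom with at least 10% of the gene in a group and a difference of at least 5 points. Other members and isoforms with values were chosen after their values were seen. The members, role groups and partner lists were chosen with earlier results of these data known. The alternatives were DESeq2 1.42.0, other scalings, log2(TPM + 0.1) in limma where the mean TPM was 0.5 or more, a minimum fold change of 1.2, no filter, a replicate block and leaving out each library.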

Additional observations from a re-analysis of the deposited data

How the results depend on the processing

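No result changed direction under an alternative while passing a test. Of the 740 fold changes of single genes and called isoforms recomputed, 654 stayed on their side of the threshold, 78 lost the call and 8 gained one. The 19 RBM genes called became 12 (6 higher, 6 lower) with limma on log2 TPM, 1 (RBM6) with a minimum fold change of 1.2, 17 with DESeq2 and 17 to 20 with 1 library left out, and the 26 isoforms called became 45 with DESeq2 and 21 to 25 with 1 library left out. The 11 genes called for usage became 4 when a difference of at least 10 points was also asked, 4 with diffSpliceDGE of edgeR and 8 to 11 with 1 library left out. Other alternatives gave 18 to 22 genes, 22 to 28 isoforms and 9 to 12 genes for usage. The share of all genes or isoforms called under each of these settings is not given here. The changes in number are therefore not shown to be particular to the RBM genes. By share of counts, RBM48-202 shifted by 11.03 and RBM26-202 by -17.53 points. The log2 fold change of RBFOX1 ran from 4.48 to 4.63.

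The replicate numbers are not shown to pair the libraries: deviations of same-numbered libraries correlated at 0.0407, 0.028 and 0.0568, although each library correlated best with its own number. A fit with the replicate block called 19 RBM genes, 26 isoforms (22 of them shared) and 12 genes for usage (10 shared). The cause of these differences was not tested. With 3 libraries a group no single-gene permutation test can pass 0.05, and isoform shares are estimates by RSEM whose assignment error is not in the p-values.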
